A study of Homo sapiens with 12 samples.

Results

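STAT3, 8 further genes of interleukin-6 signalling and IL24 were followed in MDA-MB-231 cells, an established breast cancer line, after transfection of a miR-145-5p mimic and silencing of AGO2. They are the cytokines IL6, LIF and IL24, the receptor chains IL6R, IL6ST and LIFR, the kinases JAK1 and JAK2, the transcription factor STAT3 and the feedback inhibitor SOCS3. These are 10 of the 20708 genes on the array, and all 10 had at least 1 probe above background. STAT3 and IL24 were taken up because their signal was higher with the mimic in AGO2-silenced cells, so that contrast is only described below. The other 8 belong to the same pathway.

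In this pathway a cytokine of the interleukin-6 family binds its own receptor chain, which pairs with the shared chain gp130, encoded by IL6ST. The Janus kinases bound to these chains then phosphorylate STAT3, which enters the nucleus and switches on its targets, among them SOCS3, which in turn blocks the kinases. IL24 belongs to the interleukin-10 family, whose receptors also signal through Janus kinases and STAT3. Mesenchymal-type breast cancer lines are known for secreting interleukin-6.

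RNA from 12 cultures was hybridized to 12 one-colour exon arrays, 3 biological replicates in each of 4 groups. The cntrl group was transfected with control oligonucleotides for both the mimic and the siRNA, the mimic145 group with the precursor mimic of miR-145-5p, the sirnaAGO2 group with Dicer-substrate siRNAs against AGO2, and the sirnaAGO2+mimic145 group with both active agents. Mimic and control precursor were used at 5 nM, and the siRNAs at 500 pM for 72 h. All cells are of 1 line, were grown in serum and carried transfection reagent, and the labels do not say whether the 2 groups with a single active agent also received the other control oligonucleotide.

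Mature miR-145-5p is shown because it is the agent that 2 of the 4 groups carry, and its seed, bases 2 to 8 from the 5′ end, is in capitals. The sequence is that of RefSeq (GRCh38.p14, chr5:149430661-149430683, plus strand, 23 bases):
miR-145-5p: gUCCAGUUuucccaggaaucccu

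Gene values are means of log2 quantile-normalized signals over those probes of a gene that cleared background on every array of some group (the scanner software's "well above background" call). They say nothing about which of 2 genes is the more abundant, since probes differ in brightness. Of 145 probes for the 10 genes 115 were kept, and 18253 genes were tested. The share of spots that cleared background was 60.5% to 77.3% per array, and the number of arrays limits the precision. AGO2, the silenced Argonaute protein, had a log2 signal of 9.01 to 9.21 in cntrl, 9.36 to 9.44 in mimic145, 8.35 to 8.44 in sirnaAGO2 and 8.27 to 8.41 in sirnaAGO2+mimic145. With the mimic alone it rose by 0.28 (adjusted p = 0.0298, limma). It fell by 0.71, or to 0.61-fold, with silencing alone (SE 0.076, adjusted p = 0.00491, limma), a call that was lost without sirnaAGO2 replicate 1 (adjusted p = 0.0522). In mimic-treated cells it fell by 1.06, or to 0.48-fold, from that higher level (adjusted p = 0.000783). AGO2 RNA was thus lowered but not absent in silenced cells, and cells with AGO2 below means cells not silenced. Among markers of the line, VIM, CD44, CAV1, EGFR and MSN were well above background on all 12 arrays with most or all of their probes and SPARC with 3 of 10. PGR had no probe above background, ESR1, CDH1 and ERBB3 had 3 of 14, 4 of 16 and 3 of 29 probes above it on all 12 arrays, while GATA3 and KRT19, listed as low in this line, were above background on all 12 arrays with 6 of 6 probes each. Each slide held a pair of one replicate number with the mimic array in the second position, so mimic and position cannot be told apart. Silenced and unsilenced cells lay on separate slides, so silencing and slide cannot be told apart either.

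The first question was whether the mimic alone changed these genes in cells with AGO2 (mimic145 vs cntrl). The differences in this comparison rest on none of the arrays by which STAT3 and IL24 were chosen. Their SE and p come from a fit of all 12 arrays, which includes those arrays. STAT3, IL24, IL6 and LIFR rose and JAK1 fell, which is 5 of 10 genes, beside 22.6% of all genes tested. Of the 8 genes other than STAT3 and IL24, which were also listed with earlier results of these data known, 3 passed, 2 of them higher and 1 lower, beside 11.6% of all genes called higher and 11% called lower. The 3 arrays of a group did not overlap with those of the other for 4 of the 10 genes, beside 28.4% of all genes. These were the chosen genes STAT3 and IL24, and of the other 8 only IL6 and LIFR. The median difference of the 10 genes was 0.10 on the log2 scale, that of the 8 without STAT3 and IL24 0.02, and that of all genes 0.01. In RNA of a whole culture, fewer cells that express a gene and less of its RNA per cell cannot be told apart.

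**Figure D1:**
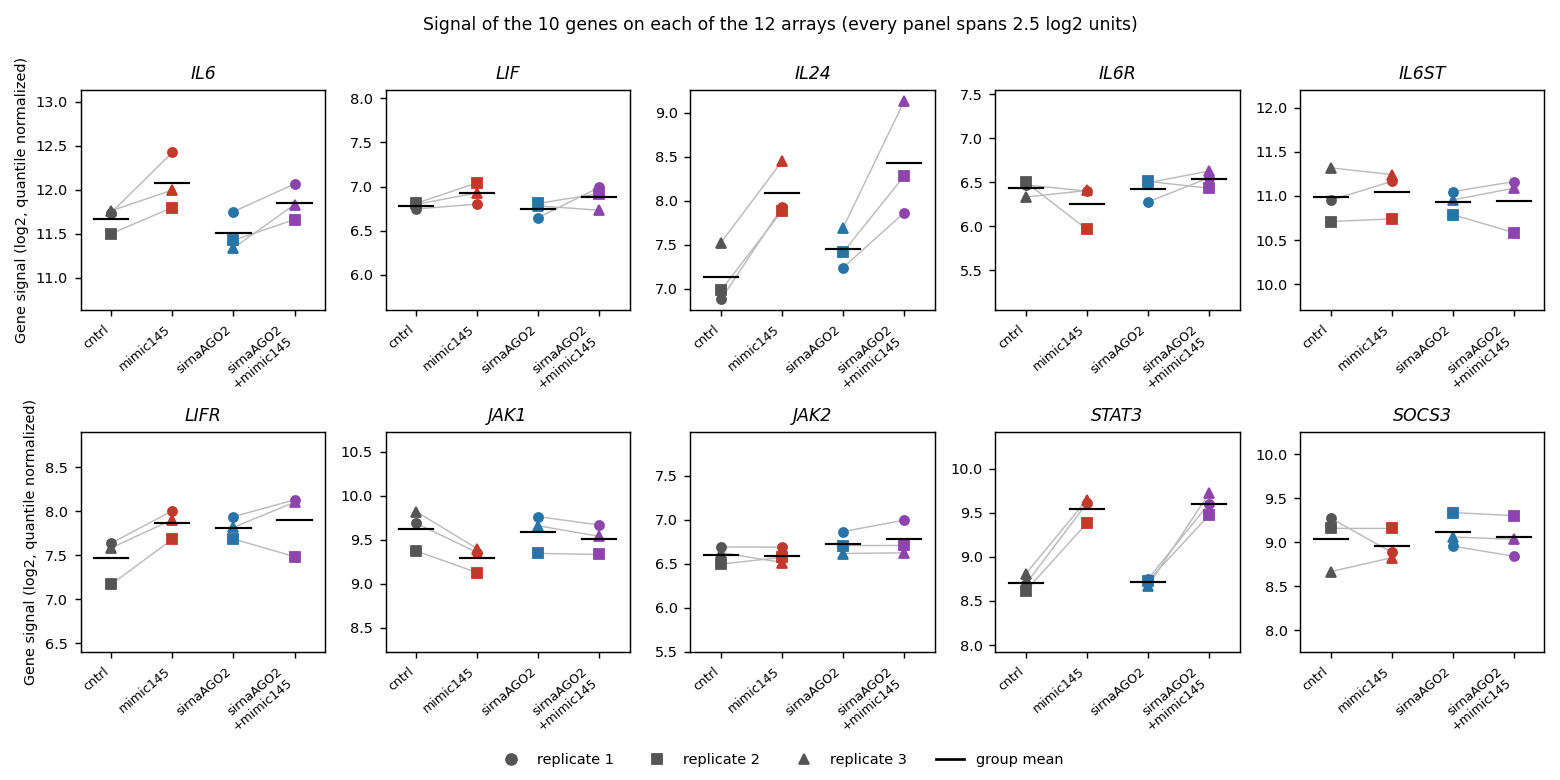
Log2 quantile-normalized signal of the 10 genes on each array, by group, with markers for the replicate number, grey lines joining the 2 arrays of a slide and a bar at the group mean. STAT3 lies at 8.62 to 8.81 on the 3 cntrl arrays and at 9.39 to 9.65 on the 3 mimic145 arrays, and every line for STAT3 and IL24 slopes upward.

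Among the ligands, IL6 encodes interleukin-6 itself. Its log2 signal was 11.74, 11.50 and 11.76 on the cntrl arrays, 12.42, 11.80 and 11.995 on the mimic145 arrays, 11.75, 11.42 and 11.34 on the sirnaAGO2 arrays, and 12.06, 11.66 and 11.83 on the sirnaAGO2+mimic145 arrays. Every mimic145 array was above every cntrl array, replicate 1 by the widest margin, whereas the silenced groups overlapped. The mimic raised IL6 by 0.40 (SE 0.10, adjusted p = 0.0192, limma), or 1.32-fold, with differences of 0.68, 0.30 and 0.23 in replicates 1, 2 and 3. All 5 IL6 probes were higher, by 0.26 to 0.55. The call was lost without cntrl replicate 1 (difference 0.31, adjusted p = 0.0795), cntrl replicate 2 (0.41, adjusted p = 0.0569) or mimic145 replicate 1 (0.32, adjusted p = 0.0864), and adjusted p ranged from 0.00862 to 0.309 over 25 alternatives, with 0.172 without the replicate block.

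LIF encodes leukemia inhibitory factor, a cytokine that signals through LIFR and gp130. It was at 6.74, 6.81 and 6.80 in cntrl and at 6.80, 7.04 and 6.93 in mimic145. The lowest mimic145 array lay within the cntrl range, and the difference of 0.14 did not pass (95% interval -0.05 to 0.33, adjusted p = 0.280, limma). Of its 4 probes 3 were higher and 1 was lower.

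IL24 encodes interleukin-24, a cytokine also known as melanoma differentiation-associated protein, described to drive cell death in tumor cells. Its log2 signal was 6.88, 6.98 and 7.53 on the cntrl arrays, 7.93, 7.89 and 8.45 on the mimic145 arrays, 7.24, 7.42 and 7.70 on the sirnaAGO2 arrays, and 7.87, 8.28 and 9.13 on the sirnaAGO2+mimic145 arrays. Replicate 3 was the highest in all 4 groups, and neither group with the mimic overlapped with its counterpart without it. In cells with AGO2 the mimic raised IL24 by 0.96 (SE 0.14, adjusted p = 0.00181, limma), or 1.94-fold, with 1.04, 0.90 and 0.92 in the 3 replicates. The 6 probes kept of 8 were all higher, by 0.61 to 1.24. The call passed in 23 of 25 alternatives and was lost without the replicate block (adjusted p = 0.06) and with the methods' t-test (adjusted p = 0.147).

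Of the receptor chains, IL6R encodes the chain that binds interleukin-6. Only 3 of its 9 probes were kept and 1 was well above background on all 12 arrays. Its signal was 6.47, 6.50 and 6.33 in cntrl and 6.40, 5.96 and 6.41 in mimic145, where replicate 2 was lowest and the groups overlapped. The difference of -0.18 (95% interval -0.46 to 0.11, adjusted p = 0.348, limma) rested on 1 probe at -0.83, while the other two lay at 0.03 and 0.28, so its direction is not settled. IL6ST was measured by 19 probes. It was at 10.95, 10.71 and 11.32 in cntrl and at 11.17, 10.74 and 11.24 in mimic145, which overlapped throughout, and the difference was 0.06 (95% interval -0.18 to 0.29, adjusted p = 0.745, limma).

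LIFR encodes the receptor of leukemia inhibitory factor. Its log2 signal was 7.64, 7.17 and 7.58 on the cntrl arrays, 8.003, 7.68 and 7.90 on the mimic145 arrays, 7.94, 7.68 and 7.82 on the sirnaAGO2 arrays, and 8.13, 7.48 and 8.10 on the sirnaAGO2+mimic145 arrays. The cntrl arrays lay below all mimic145 and all sirnaAGO2 arrays, and replicate 2 was lowest in every group. With the mimic LIFR rose by 0.40 (SE 0.094, adjusted p = 0.0156, limma), or 1.32-fold, with 0.37, 0.51 and 0.32 in the 3 replicates. Of 16 probes kept of 21, 14 were higher. The call was lost without cntrl replicate 1 (difference 0.40, adjusted p = 0.0512), cntrl replicate 2 (0.37, adjusted p = 0.0615) or mimic145 replicate 2 (0.35, adjusted p = 0.0607), and adjusted p ranged from 0.00396 to 0.205 over 25 alternatives, the highest without the replicate block.

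JAK1 encodes the kinase that gp130 mainly relies on. Its log2 signal was 9.69, 9.37 and 9.82 on the cntrl arrays, 9.36, 9.13 and 9.40 on the mimic145 arrays, 9.76, 9.35 and 9.66 on the sirnaAGO2 arrays, and 9.67, 9.33 and 9.54 on the sirnaAGO2+mimic145 arrays. Replicate 2 was lowest in every group, so the groups overlapped although each mimic145 array was below its own control. JAK1 fell by 0.33 (SE 0.073, adjusted p = 0.0116, limma), with -0.33, -0.25 and -0.42 in the 3 replicates, and all 25 probes were lower. The call was lost without mimic145 replicate 1 (difference -0.30, adjusted p = 0.0569), and adjusted p ranged from 0.0065 to 0.198 over 25 alternatives, the highest without the replicate block. JAK2, the related kinase, had 10 of 26 probes kept. It was at 6.69, 6.50 and 6.63 in cntrl and at 6.69, 6.57 and 6.52 in mimic145, which overlapped, with a difference of -0.01 (95% interval -0.18 to 0.15, adjusted p = 0.920, limma).

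STAT3 encodes the transcription factor itself. Its log2 signal was 8.69, 8.62 and 8.81 on the cntrl arrays, 9.61, 9.39 and 9.65 on the mimic145 arrays, 8.75, 8.73 and 8.67 on the sirnaAGO2 arrays, and 9.61, 9.47 and 9.72 on the sirnaAGO2+mimic145 arrays. The 6 arrays with the mimic were all above the 6 without it, and neither pair of groups that differ in silencing alone was separated. In cells with AGO2 STAT3 rose by 0.84 (SE 0.076, adjusted p = 0.00024, limma), or 1.79-fold, with 0.92, 0.77 and 0.84 in the 3 replicates. Of its 26 probes 25 were higher, up to 1.31. The remaining probe, well above background on all 12 arrays, was at -0.14 here and at -0.06 with the mimic in silenced cells. The STAT3 call passed in 24 of 25 alternatives, all but the methods' t-test over 3 pairs (adjusted p = 0.147), under which no gene of the whole array passed.

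SOCS3, the inhibitor that STAT3 induces, was measured by 1 probe kept of 2. It was at 9.27, 9.16 and 8.67 in cntrl and at 8.89, 9.16 and 8.82 in mimic145. The groups overlapped and the difference of -0.08 did not pass (95% interval -0.38 to 0.23, adjusted p = 0.728, limma).

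**Figure D2:**
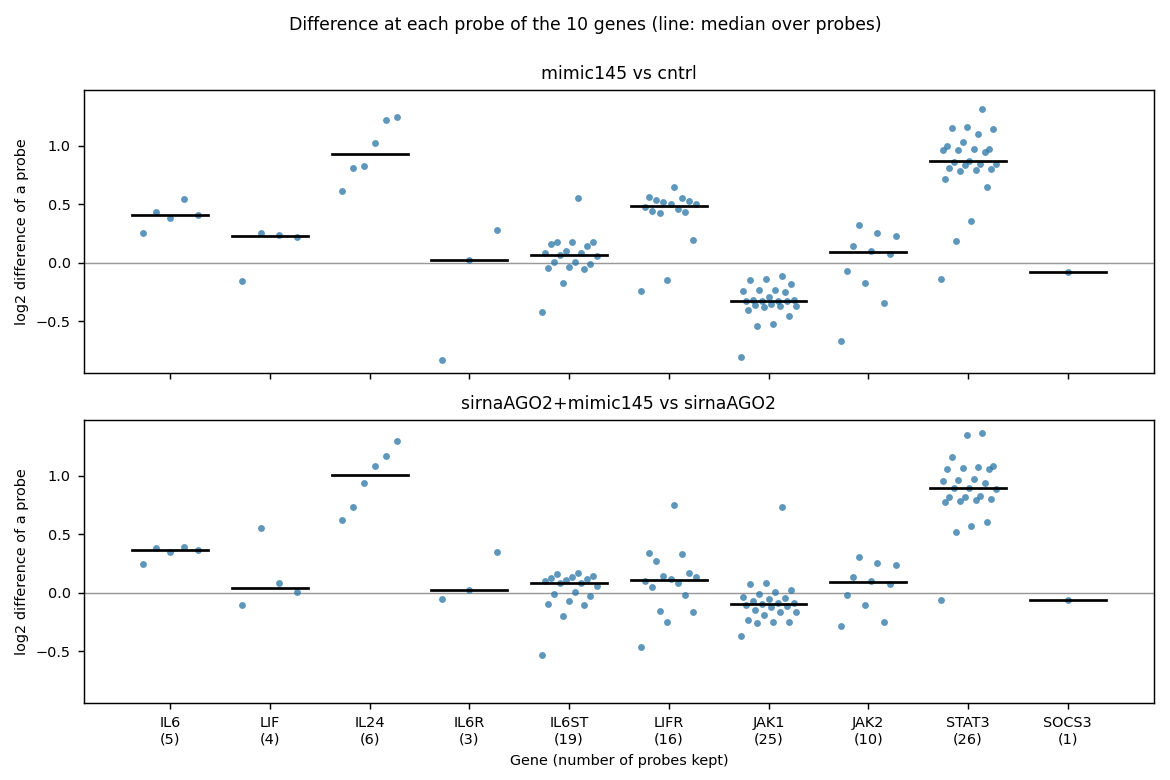
Log2 difference of each kept probe of the 10 genes, with the number of probes below each name and a line at their median, for the mimic in cells with AGO2 (upper) and in silenced cells (lower, the contrast STAT3 and IL24 were chosen by). STAT3 has 25 of 26 probes above 0 in each panel, and JAK1 has 25 of 25 below 0 in the upper and 20 of 25 in the lower.

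In AGO2-silenced cells the mimic contrast (sirnaAGO2+mimic145 vs sirnaAGO2) was the one by which STAT3 and IL24 were chosen, and its values are a description without a test. STAT3 was 0.89 higher, with 0.86, 0.75 and 1.05 in the 3 replicates. IL24 was 0.98 higher, with 0.62, 0.87 and 1.44, so its replicates spread more widely (SD 0.42) than in cells with AGO2 (SD 0.076). These 2 of the 10 genes were without overlap between groups, beside 24.1% of all genes, of which 7.28% were called.

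Of the other 8 genes in silenced cells, IL6 was 0.35 higher, with 0.31, 0.24 and 0.49 in the 3 replicates, though its groups overlapped. LIFR was 0.09 higher, with 0.19, -0.20 and 0.29, and JAK1 0.08 lower, with -0.10, -0.01 and -0.12. LIF, IL6R, JAK2, IL6ST and SOCS3 were between -0.06 and 0.14, but with 75th percentile scaling IL6R, LIF and JAK2 were at 0.38, 0.35 and 0.28, and the signs of IL6R, JAK2 and SOCS3 were not settled. The mimic effect in silenced cells minus that in cells with AGO2 was 0.04 for STAT3 and 0.02 for IL24, but the replicates ranged from -0.42 to 0.51 for IL24. It was 0.26 for JAK1 (0.24, 0.23 and 0.30 in the replicates) and -0.31 for LIFR (-0.17, -0.71 and -0.03), and none of these differences was tested.

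**Figure D3:**
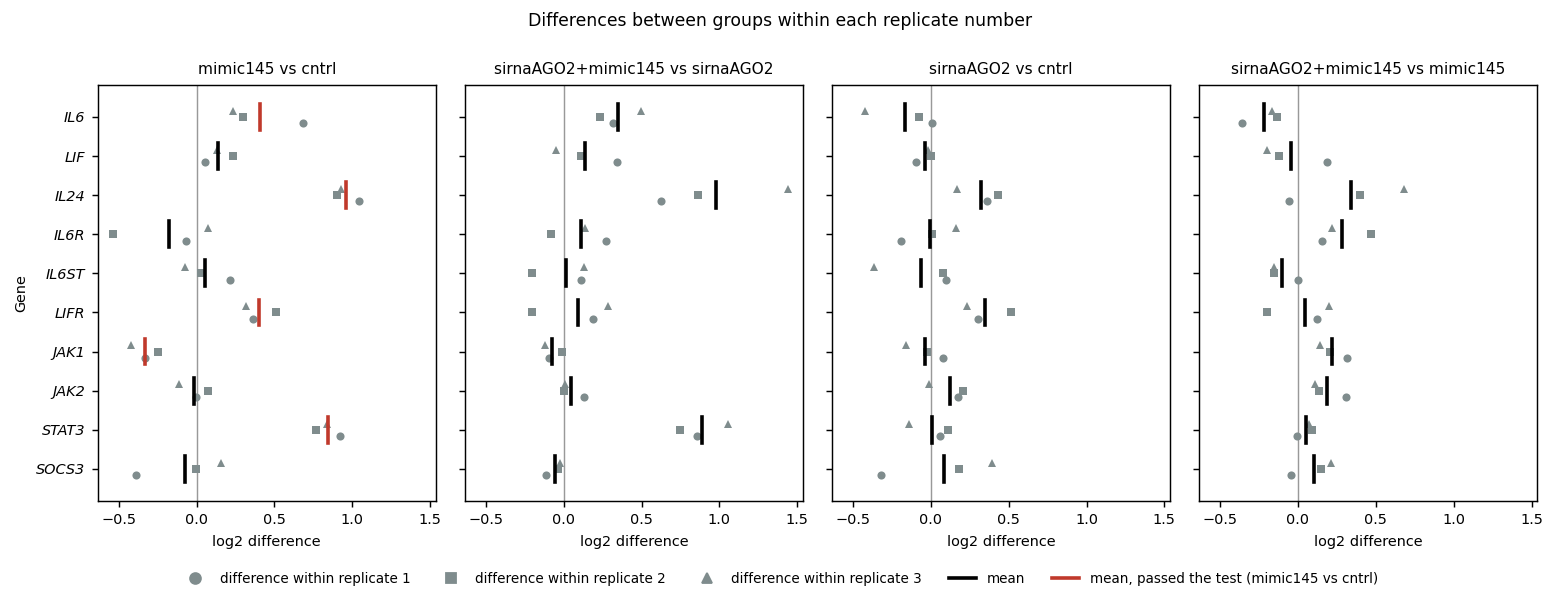
Log2 differences of the 10 genes between groups within each replicate number (markers) and their mean (bars, red where the gene passed in mimic145 vs cntrl), 1 panel per comparison. STAT3 has means of 0.84 and 0.89 for the mimic in the 2 left panels and of 0.01 and 0.05 for silencing in the 2 right panels.

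Silencing of AGO2 alone (sirnaAGO2 vs cntrl) was tested for the 8 genes other than STAT3 and IL24, which share the sirnaAGO2 arrays with their choice. With the methods' t-test no gene of the whole array passed after adjustment, and 0 of these 8 had an unadjusted p under 0.05. None of the 8 passed with limma, beside 2.58% of all genes, and 1 had an unadjusted p under 0.05. That gene was LIFR, 0.35 higher (SE 0.094, unadjusted p = 0.00471, adjusted p = 0.0898), with 0.30, 0.52 and 0.23 in the 3 replicates. Its groups did not overlap, beside 19.1% of all genes, and it passed without sirnaAGO2+mimic145 replicate 2 (adjusted p = 0.0441). IL6 was at -0.16 (95% interval -0.39 to 0.06) and JAK1 at -0.04 (-0.20 to 0.13). STAT3 lay at 0.01 and IL24 at 0.32, as a description, and all 3 IL24 replicates were higher.

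Silencing in cells with the mimic (sirnaAGO2+mimic145 vs mimic145) was tested for the same 8 genes. With the methods' t-test no gene of the whole array passed after adjustment here either, and 1 of the 8 had an unadjusted p under 0.05. None passed with limma, beside 4.32% of all genes, and 2 had an unadjusted p under 0.05. Those were JAK1 at 0.22 (SE 0.073, unadjusted p = 0.0147, adjusted p = 0.126), with 24 of 25 probes higher, and JAK2 at 0.18 (SE 0.073, unadjusted p = 0.0330, adjusted p = 0.188), which was at 0.00 over the 4 of its 10 kept probes detected on all 12 arrays. IL6 was at -0.22 (95% interval -0.45 to 0.01, adjusted p = 0.244), lower in all 3 replicates. IL6R was at 0.28 (-0.003 to 0.56, adjusted p = 0.237), the only 1 of the 8 whose groups did not overlap, beside 14.8% of all genes. This too rested on 1 of its 3 probes, at 0.79 and well above background on 1 mimic145 array, while the others lay at -0.02 and 0.07, and without the probe filter it was at -0.03. STAT3 lay at 0.05 and IL24 at 0.34, with IL24 lower in replicate 1 and higher in replicates 2 and 3. This comparison shares its mimic145 arrays with mimic145 vs cntrl, and the values of both rest on them.

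The wider pathway was read from lists of 65 further genes, of which 62 were measured and IL10, IL20 and IL26 had no probe above background. With the mimic in cells with AGO2, 22 of the 62 passed, 13 of them higher and 9 lower. Over all genes 22.6% passed, 11.6% higher and 11% lower, and these shares also stand beside the count of each list below. The median difference of the 62 genes was 0.05, beside 0.01 over all genes. Of the 22, 16 passed in each of the 12 fits that left out 1 array, and the other 6 (PIAS2, PIM1, SOCS4, STAT2, STAT5A and TYK2) were lost in at least 1, up to adjusted p = 0.146 for PIAS2. The values that follow are log2 differences of mimic145 vs cntrl with adjusted p from limma.

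Of 9 other ligands of the interleukin-6 family 1 passed, EBI3, a subunit of interleukin-27 and interleukin-35, at -0.44 (adjusted p = 0.00673). Of 5 other receptor chains of the family 1 passed, OSMR, the oncostatin M receptor that pairs with gp130, at -0.56 (adjusted p = 0.00429). LIFR and OSMR, both partners of gp130, thus passed in opposite directions. On the side of the interleukin-10 family, IL10RB, the chain shared by several of its receptors, was at -0.42 (adjusted p = 0.0044). IL22, a ligand of that family, is counted among the 22 on 1 kept probe, which was well above background on all cntrl and sirnaAGO2 arrays and on none with the mimic. That probe was kept only through the groups where it is bright, so its call supports nothing. Over all IL22 probes, without the filter, the difference was -0.03 (adjusted p = 0.909).

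Among the kinases TYK2 was at 0.25 (adjusted p = 0.0249), while JAK3 did not pass. Of 5 STAT factors listed beside STAT3 3 passed. STAT2, a factor of the interferon response, fell by 0.24 (adjusted p = 0.0368). STAT5A at 0.24 (adjusted p = 0.0294) and STAT5B at 0.31 (adjusted p = 0.00738) rose, in the direction of STAT3.

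Of 15 other inhibitors of the pathway 5 passed, 4 of them higher. SOCS1, SOCS4 and SOCS6 belong to the family of SOCS3 and were at 0.45 (adjusted p = 0.00258), 0.43 (adjusted p = 0.022) and 0.50 (adjusted p = 0.0046). SOCS1 rested on 1 probe, and the SOCS6 call was lost with only the probes detected on all 12 arrays (0.43, adjusted p = 0.07). PIAS2, of the protein inhibitors of activated STAT, was at 0.31 (adjusted p = 0.0371). PTPN11, a phosphatase bound by gp130, was at -0.30 (adjusted p = 0.0127).

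Of 19 genes listed as STAT3 targets 9 passed, 6 higher and 3 lower, beside 11.6% of all genes called higher and 11% called lower. CEBPB, a transcription factor of the acute-phase response measured by 1 probe, rose by 0.97 (adjusted p = 0.00554), and JUNB, a subunit of AP-1, also on 1 probe, by 0.56 (adjusted p = 0.00263). ICAM1, MCL1, CCND1 and PIM1, an adhesion molecule, a survival factor, a cyclin and a kinase, rose by 0.43, 0.42, 0.38 and 0.31. The 3 that fell are secreted acute-phase proteins. LCN2, lipocalin 2, fell by 1.51 (adjusted p = 0.000103), SAA1 by 1.27 (adjusted p = 0.000637) and SAA2 by 1.30 (adjusted p = 0.000459). SAA1 and SAA2 are near-identical serum amyloid A genes whose probes may catch both transcripts.

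**Figure D4:**
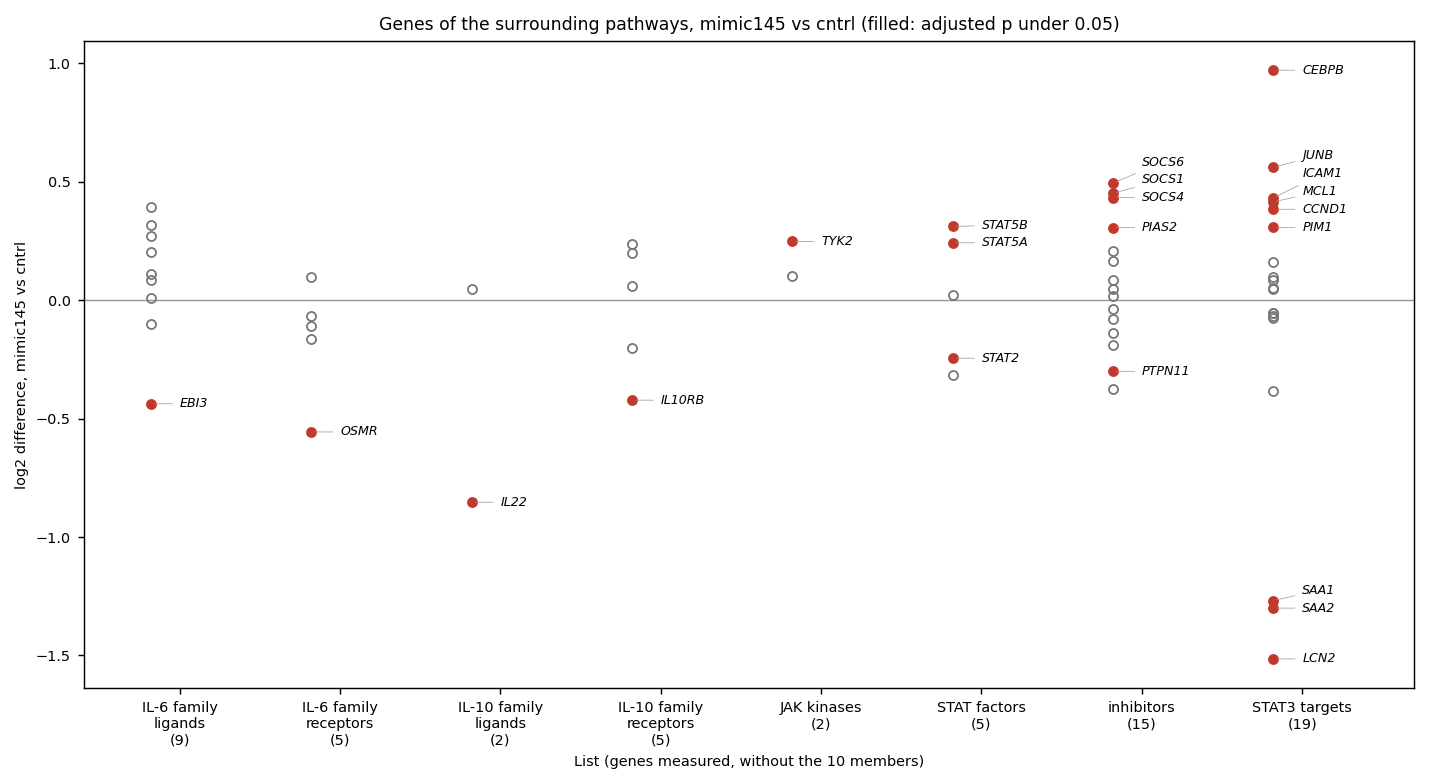
Log2 difference (mimic145 vs cntrl) of 62 genes of the surrounding pathways, by list, with the number measured below each name; filled and named genes passed at an adjusted p under 0.05. Genes that passed lie on both sides of 0, with STAT factors split 2 and 1 and STAT3 targets between -1.51 for LCN2 and 0.97 for CEBPB.

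Silencing called few genes on the whole array, 2.58% alone and 4.32% in mimic-treated cells, and few of these pathway genes as well. In sirnaAGO2 vs cntrl 2 of 62 passed, both lower, beside 0.888% of all genes called higher and 1.69% called lower: IRF1, an interferon-regulated transcription factor, at -0.32 (adjusted p = 0.0441) and IL22RA1, a receptor chain used by interleukin-24, at -0.51 (adjusted p = 0.0232). Each of them was lost at least when any 1 cntrl or sirnaAGO2 array was left out, with adjusted p up to 0.197 and 0.129. Of the 2 kept IL22RA1 probes 1 was kept only through cntrl, the group where the gene was higher. With only the probes detected on all 12 arrays IL22RA1 was at -0.32 and did not pass (adjusted p = 0.0841, limma), so its call supports nothing. In sirnaAGO2+mimic145 vs mimic145 5 of 62 passed, 4 higher and 1 lower, beside 1.87% of all genes called higher and 2.44% called lower. All 5 had passed in mimic145 vs cntrl in the opposite direction. Both comparisons rest on the same mimic145 arrays, so the opposite directions are not independent results. SAA1 and SAA2 were 1.40 and 1.45 higher (adjusted p = 0.00324 and 0.00242), and both calls held in each of the 12 fits that left out 1 array. Both were lost with only the 6 arrays compared (adjusted p = 0.212 for each) and without replicate 1 (adjusted p = 0.135 and 0.103) or replicate 3 (adjusted p = 0.0721 and 0.102), and SAA1 was also lost without replicate 2 (adjusted p = 0.0515). With only those 6 arrays or without replicate 3 no gene of the whole array passed, so these losses say nothing particular to SAA1 and SAA2. Without replicate 1 only 3 genes of the array passed, and without replicate 2 only 12. STAT2 was 0.46 higher (adjusted p = 0.0132), lost without mimic145 replicate 1 (adjusted p = 0.0702), and LCN2 was 0.52 higher and CCND1 0.31 lower, lost in 10 and 9 of the 12 fits.

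Over the 12 arrays, after the mean of each replicate number was subtracted, STAT3 correlated with IL24 at r = 0.94, with IL6 at 0.84, with LIFR at 0.67 and with JAK1 at -0.71. It was near 0 with IL6R (-0.04) and JAK2 (0.13). The genes with at least 3 kept probes whose pattern was most like that of STAT3, of 13328 compared, were SH3RF1 (r = 0.991), PRRC2C (r = 0.99) and RAB8B (r = 0.988). RAB8B, a small GTPase of vesicle transport, was at 8.13 in cntrl and 8.27 in sirnaAGO2, against 9.09 in mimic145 and 9.06 in sirnaAGO2+mimic145. For IL24 they were GPN2 (r = 0.982), ISCU (r = 0.977) and FBXO27 (r = 0.975). ISCU, a scaffold of iron-sulfur cluster assembly, was at 11.17 in cntrl, 11.46 in sirnaAGO2, 11.77 in mimic145 and 11.89 in sirnaAGO2+mimic145. These r describe 12 arrays that share 4 treatments, and carry no p. STAT3 and IL24 were both chosen by their rise in a contrast among these arrays. That choice favours a high r between them, so it is no support for a link.

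STAT factors bind palindromes of the form TTCNNNGAA, where N is any base, which reads the same on both strands. RefSeq promoter windows of 300 bases (GRCh38.p14) were at hand for 9 of the 10 genes, LIF being the one without. Of 17 windows of these genes 2 held the motif, beside 7.66% of 35116 windows of all genes, and both belong to LIFR. They are shown, 5′ to 3′ on the minus strand with the motif in capitals, because LIFR is the receptor gene that rose:
LIFR, chr5:38557633-38557657, motif from base -182 before a transcript start: tttggagtTTCATCGAAaggtcttt
LIFR, chr5:38595554-38595578, motif from base -165 before another start: attactagTTCCTTGAAccacaatc
Among the pathway lists, windows of CISH, ICAM1, IL10RB, IL19 and IRF1 held the motif too. With the mimic in cells with AGO2, ICAM1 rose by 0.43 and IL10RB fell by 0.42, while CISH, IL19 and IRF1 did not pass. A match is only these letters in the window, and no binding was measured.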

How the data were processed

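RNA of 12 cultures was labelled with Cy3 and hybridized to SurePrint G3 Human Exon arrays, and the authors deposited the scanner output of each array, extracted with Feature Extraction 10.7.3.1 (header build hg19), whose intensity values are background-corrected by that software. The authors' own log2 table, which per their methods was floored at 1, quantile normalized and log2-transformed, was deposited for 217027 probes. Each of its 12 columns correlated best with its own array (lowest rank correlation 0.9997), and it served as an alternative.

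Processed signals of noncontrol spots were floored at 1 (none was lower), quantile normalized over 12 arrays, log2-transformed and averaged over spots of a probe. Outlier spots (304 to 462 per array) were left out. Probes were named through their RefSeq accession (209671 of 233164, 89.9%), and kept where every spot was well above background on all 3 arrays of a group. Probes of a gene were averaged.

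Genes were tested with limma 3.58.1 (R 4.3.3) on all 12 arrays, with group and replicate number as terms, two-sided, and Benjamini-Hochberg adjustment over 18253 genes (threshold 0.05). The replicate block follows the paired test in the methods. Arrays of the same number deviated together (r 0.148 to 0.576 over 18 pairs), some of which also share a slide. P-values measure the spread between 3 cultures of 1 line. On simulated data for mimic145 vs cntrl with 18253 genes, 39.5% of 200 changes of 0.5 and 91.5% of 200 changes of 1 (log2) were found. In the data 4121 genes were called, far more than the simulation changed, so these rates do not give the sensitivity of that comparison.

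The 10 genes and the pathway lists were chosen with earlier results of these data known, and 1 listed gene is not reported here. Named are the 10 genes, AGO2, and each listed pathway gene that passed in mimic145 vs cntrl, sirnaAGO2 vs cntrl or sirnaAGO2+mimic145 vs mimic145. Named too are listed genes with the STAT motif in a promoter window, and the 3 genes most like STAT3 and most like IL24. Other scalings, normexp background correction of the median signals (offset 50), probe filters, summaries, blocks, the methods' paired t-test and the removal of arrays were tried. Figures were drawn with matplotlib. No genome was used here, so target sites in transcripts were not analysed.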

Additional observations from a re-analysis of the deposited data

Results flagged for a closer look

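The search covered the 10 genes and the listed pathway genes that had passed in a comparison. In 5 of these pathway genes every replicate moved one way in one arm and the other way in the matching arm. The difference itself was not tested, and no share over all genes was counted. Each had passed in a comparison that rests on arrays of an arm given here, so opposite signs are favoured by the choice. LCN2 was at -0.47 with silencing alone and at 0.52 with silencing in mimic-treated cells, a difference of 0.99. SOCS6 was at 0.22 and -0.33 (difference -0.56), STAT5B at 0.14 and -0.15 (difference -0.29) and ICAM1 at 0.14 and -0.04 (difference -0.18) in the same comparisons. All 3 kept SOCS6 probes were well above background on all sirnaAGO2 arrays, against 2 in each other group. On the sirnaAGO2+mimic145 arrays 1 of them never was, so the probe filter may favour this pattern. IL22RA1, on 2 probes, was at -0.51 and 0.09 with silencing, and equally at -0.20 with the mimic in cells with AGO2 and at 0.40 with the mimic in silenced cells (difference 0.60). Of these 2 probes 1 was kept only through cntrl, which favours a high cntrl value.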

How the results depend on the processing

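The 5 genes called in mimic145 vs cntrl became 3 with the median over probes, 1 without the replicate block (no replicate block: STAT3, with IL24 at adjusted p = 0.06), 2 with only the 6 arrays compared and 0 with the methods' t-test (4 at an unadjusted p under 0.05). They ranged from 2 to 5 when an array or a replicate number was left out. Over all genes the 4121 calls of this comparison became 3378, 1997, 1826 and 0 in the same order of settings. With an array or a replicate number left out they ranged from 1211 to 4429. Of the 8 genes tested in sirnaAGO2 vs cntrl 0 were called, against 1 (LIFR) with only the probes detected on all 12 arrays, and 0 to 1 when arrays were left out. In sirnaAGO2+mimic145 vs mimic145 0 were called under every alternative, and SAA1, SAA2, STAT2, LCN2 and CCND1, called there, were all lost with only the arrays compared and with the methods' t-test. Under both of these settings no gene of the whole array passed in that comparison. The 22 pathway genes of mimic145 vs cntrl became 10 without the replicate block, 11 with only the arrays compared and 0 with the methods' t-test, and ranged from 5 to 23 when arrays were left out, beside the counts over all genes given above. The 2 of sirnaAGO2 vs cntrl became 4 with normexp and likewise with the probes detected on all 12 arrays, and 0 without the replicate block, with the slide as a random block, with only the arrays compared and with the methods' t-test, and ranged from 0 to 2 when arrays were left out. Over all genes the 471 calls of sirnaAGO2 vs cntrl became 828, 1117, 48, 36, 235 and 0 in the same order of settings. With arrays left out they ranged from 0 to 590. The difference of STAT3 in silenced cells moved from 0.89 to 0.72 with normexp. The cause of these changes was not tested, beside the smaller number of arrays where arrays were left out.

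None of the called genes changed direction. Uncalled values near 0 did. In mimic145 vs cntrl IL6R turned to 0.0040 (75th percentile), 0.078 (no filter) and 0.28 (probes detected on all 12 arrays), and JAK2 to 0.12 (75th percentile), 0.040 (normexp), 0.022 (the authors' table), 0.17 (probes on all 12 arrays) and 0.040 (median). In sirnaAGO2 vs cntrl IL6R turned to 0.0098 (normexp), 0.0095 (the authors' table), 0.046 (no filter) and 0.079 (median), SOCS3 to -0.052 (no filter) and JAK1 to 0.018 (probes on all 12 arrays). In sirnaAGO2+mimic145 vs mimic145 IL6R turned to -0.025 and SOCS3 to -0.0045 (no filter), LIF to 0.00024 (normexp) and JAK2 to -6.0e-05 (probes on all 12 arrays). In sirnaAGO2+mimic145 vs sirnaAGO2, given without a test, IL6R was at -0.10 (median), JAK2 at -0.22 (no filter) and SOCS3 at 0.027 (normexp), 0.026 (the authors' table) and 0.015 (no filter). With arrays left out, values that turned ranged in mimic145 vs cntrl from -0.040 to 0.16 (IL6ST), -0.30 to 0.0017 (IL6R), -0.22 to 0.12 (SOCS3) and -0.057 to 0.055 (JAK2), in sirnaAGO2 vs cntrl from -0.16 to 0.088 (IL6ST), -0.11 to 0.10 (IL6R), -0.078 to 0.0013 (LIF), -0.069 to 0.29 (SOCS3) and -0.095 to 0.025 (JAK1), and in sirnaAGO2+mimic145 vs mimic145 from -0.16 to 0.041 (LIF) and -0.036 to 0.16 (LIFR). Scaling to the 75th percentile raised the share of higher calls over all genes in sirnaAGO2+mimic145 vs sirnaAGO2 from 58.4% to 80.2%. Probes near background limit IL6R, JAK2 and LIF, while SOCS3 rests on 1 kept probe, which was well above background on all 12 arrays.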
